A study of Mus musculus with 20 samples.

Results

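Distal intergenic H3K27ac regions of mouse hepatocytes were taken as the stretches of acetylated chromatin that lie well away from protein-coding genes. The called regions of 10 libraries were merged wherever they overlapped by at least 1 bp, and an autosomal merged region became a member when all 10 libraries had called it. It also had to lie outside the span of every RefSeq protein-coding gene, with 10 to 100 kb between its edge and the nearest span. This rule left 1319 members among the 12550 merged regions called in all libraries and the 46767 merged regions in all. A member is named below by the nearest protein-coding gene. That name gives its position and not a gene it acts on.

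The old group comprised 5 H3K27ac libraries from C57BL/6J mice aged 23 months, and the young group 5 libraries from C57BL/6N mice aged 5 months, so substrain and age cannot be told apart. Hepatocytes had been obtained by liver perfusion, and human chromatin had been added to the preparations of both groups as a spike-in. Values scaled to that spike-in were not analysed here, and differences are therefore relative within a library. The labels do not say whether the libraries came from separate mice, so a p-value here reflects variation among libraries, some of which may be technical.

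Acetylation of histone H3 at lysine 27 marks active promoters and active enhancers, the DNA elements that can raise the transcription of a gene from a distance. In hepatocytes such elements are bound by liver-enriched factors including HNF4A, HNF1, FOXA and C/EBP proteins, and many of them serve metabolic genes. Enhancers are usually told from promoters by the methylation of lysine 4 of the same histone, which was not analysed here. The members are therefore called distal regions. Of them, 808 overlapped no annotated gene and 511 overlapped a noncoding one.

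Starts of long noncoding RNAs are where sequence could be read, because RefSeq windows of 300 bases (250 before and 50 after the start, assembly GRCm38.p6, to which mm10 corresponds) were at hand for them. Of the members, 200 contained a whole window of this kind, 254 windows of 215 genes together. Windows of alternative starts overlap each other. The sequences below are those of the 3 members past the age threshold that held a start, followed by 4 from other members that show the liver-factor motifs and the range of base composition. They run 5′ to 3′ on the strand of the RNA, with the matches of the motifs named beside them in capitals.
Gm34333 (member nearest Gpr12, chr5:146600084-146600383, minus strand, no motif match): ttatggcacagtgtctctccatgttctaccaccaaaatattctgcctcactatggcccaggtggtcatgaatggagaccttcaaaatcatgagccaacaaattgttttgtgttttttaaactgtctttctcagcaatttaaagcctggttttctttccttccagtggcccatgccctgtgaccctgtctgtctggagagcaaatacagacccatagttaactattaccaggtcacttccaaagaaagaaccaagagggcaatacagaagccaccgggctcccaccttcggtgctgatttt
Gm39044 (member nearest Abhd17c, chr7:84164865-84165164, minus strand, no motif match): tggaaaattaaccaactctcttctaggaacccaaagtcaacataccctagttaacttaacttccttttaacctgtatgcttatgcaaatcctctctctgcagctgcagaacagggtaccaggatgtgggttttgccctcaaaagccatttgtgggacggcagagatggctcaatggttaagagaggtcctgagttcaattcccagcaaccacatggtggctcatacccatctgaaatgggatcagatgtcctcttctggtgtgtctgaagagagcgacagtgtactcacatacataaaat
Gm39277 (member nearest Rhou, chr8:123709532-123709831, plus strand, no motif match): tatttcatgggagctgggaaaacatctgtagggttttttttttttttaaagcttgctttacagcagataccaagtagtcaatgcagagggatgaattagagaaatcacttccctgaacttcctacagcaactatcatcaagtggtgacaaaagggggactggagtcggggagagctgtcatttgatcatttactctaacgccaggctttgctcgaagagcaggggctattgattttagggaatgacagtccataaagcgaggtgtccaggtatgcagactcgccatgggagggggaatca
Gm32845 (member nearest Ptpn1, chr2:167848157-167848456, plus strand, HNF4A match): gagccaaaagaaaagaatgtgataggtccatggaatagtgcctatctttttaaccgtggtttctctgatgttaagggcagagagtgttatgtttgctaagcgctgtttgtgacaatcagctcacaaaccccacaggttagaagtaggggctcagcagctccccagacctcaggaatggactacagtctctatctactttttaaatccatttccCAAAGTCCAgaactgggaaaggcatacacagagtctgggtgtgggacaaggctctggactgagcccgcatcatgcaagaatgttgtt
Gm41871 (member nearest Tcf7l2, chr19:55700893-55701192, plus strand, HNF1 match on the minus strand): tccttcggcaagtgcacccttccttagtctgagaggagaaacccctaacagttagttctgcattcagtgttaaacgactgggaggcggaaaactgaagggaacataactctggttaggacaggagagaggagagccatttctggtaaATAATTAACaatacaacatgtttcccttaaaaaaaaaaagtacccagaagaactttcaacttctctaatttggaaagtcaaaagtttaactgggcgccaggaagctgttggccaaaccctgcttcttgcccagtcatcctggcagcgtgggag
5930430L01Rik (member nearest Hmgb1, chr5:148995165-148995464, minus strand, ISRE core match near the upstream end and HNF1 match downstream of the start): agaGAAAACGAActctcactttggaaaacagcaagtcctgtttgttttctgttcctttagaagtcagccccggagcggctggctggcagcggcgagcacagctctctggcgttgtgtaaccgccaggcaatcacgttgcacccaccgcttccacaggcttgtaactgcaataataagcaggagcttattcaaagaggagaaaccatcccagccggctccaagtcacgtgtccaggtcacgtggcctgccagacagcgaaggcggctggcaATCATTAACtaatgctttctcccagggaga
E130102H24Rik (member nearest Ak4, chr4:101356199-101356498, minus strand, FOXA match): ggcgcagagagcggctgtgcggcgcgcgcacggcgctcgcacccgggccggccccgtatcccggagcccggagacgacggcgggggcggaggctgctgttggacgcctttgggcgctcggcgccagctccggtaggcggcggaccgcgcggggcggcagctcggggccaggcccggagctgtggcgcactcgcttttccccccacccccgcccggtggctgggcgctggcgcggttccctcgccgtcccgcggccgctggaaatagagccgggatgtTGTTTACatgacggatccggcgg

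Each motif was searched on both strands. The HNF1 letters GTTAATNAT occurred in 11 of the 254 windows inside members (4.33%), against 0.949% of 11587 windows at all long noncoding RNA starts and 0.801% of 32817 windows that also include protein-coding genes. The 11 windows belonged to 7 members. The HNF4A letters CAAAGTCCA occurred in 5 windows of 5 members (1.97%), against 0.518% of long noncoding and 0.475% of all windows. The FOXA letters TGTTTAC stood in 6.30% of member windows, against 4.83% of long noncoding and 3.65% of all windows. For the core of the interferon-stimulated response element, GAAANNGAA, the shares were 10.6%, 9.32% and 8.55%. Other motifs searched did not all stand higher in member windows. In the same order, the shares were 5.51%, 6.21% and 5.20% for AP-1 (TGACTCA) and 5.12%, 4.94% and 5.82% for NF-kB (GGGNNTTCC). They were 0.394%, 0.414% and 1.24% for the CTCF core (AGGGGGCGC) and 1.57%, 1.02% and 0.935% for the D-box (TTATGTAA). The C/EBP letters TTGCGCAA stood in 1 member window (0.394%, against 0.112% and 0.183%). No HNF1 or HNF4A match shown overlapped a match of another motif. In Gm32845 the HNF4A letters began 37 bases before the start, and in Gm41871 the HNF1 letters began 103 bases before it. The comparison windows were not limited to starts inside called regions, and called starts outside the members were not compared. The match is a matter of letters and does not show binding.

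The windows also differed in base composition. E130102H24Rik had a GC content of 76.7% and 47 CpG dinucleotides, whereas Gm34333 had 45% and 2. The median protein-coding window held 13 CpG, and 37 of the 254 member windows reached that number (14.6%, against 14.04% of long noncoding windows in general). The 35 members with such a CpG-rich start had a median of 98.8 tags per kb and a spread within an age of 0.21 on the log2 scale. The 165 other members with a noncoding start had 58.0 tags per kb and a spread of 0.33, and the 1119 members without a start 44.3 and 0.40. In signal per length and in spread, members with a CpG-rich start sat near the gene ends described below.

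Libraries held 6295930 to 15544145 tags and 21213 to 30195 called regions. The IP efficiency, which is the share of a library's tags inside called regions, was 24.5 to 35.8% in old and 34.6 to 48.2% in young libraries. Old replicate 5 had the lowest efficiency and the fewest regions, and young replicate 5 had the most tags and an estimated fragment length of 620 bp, against 414 to 444 bp elsewhere. All 12 hepatocyte markers examined had called gene ends in all libraries. Of 14 Kupffer cell and macrophage markers 12 were called in no library, as were 11 of 12 stellate cell markers, 10 of 12 lymphocyte markers, 6 of 10 cholangiocyte markers and 5 of 12 endothelial markers. Cd68 of the macrophage list was called in all libraries.

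The distal regions were weaker than gene-end regions and varied more. Their values are HOMER tag numbers scaled to 10000000 tags per library and summed over a library's calls inside the merged region. The median member had 103 scaled tags and 46.0 tags per kb of called length, against 254 scaled tags and 96.4 tags per kb at the 6562 autosomal gene-end regions, which lie within 1 kb of an end of a protein-coding gene. The median was lower at distal than at gene-end regions in 10 of 10 libraries, for scaled tags, tags per kb and called length alike. Merged lengths were closer, with medians of 3179 bp in members and 3325 bp at gene ends. The median spread between libraries of the same age was 0.39 on the log2 scale in members and 0.23 at gene ends. In signal per length the members resembled the 3348 gene-body regions, which had 44.8 tags per kb and a spread of 0.40. The median enrichment over input was 8.99-fold in members and 10.03-fold at gene ends. Of the members, 895 were called as a single piece in every library.

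The members also differed widely among themselves. Their mean scaled tags ran from 17.8 to 2188, and the 59 members with at least 500 held 21.8% of all scaled tags in members. Agreement between libraries of an age was closest at the member nearest S1pr1, a receptor gene for sphingosine phosphate, with a spread of 0.07 on the log2 scale. It was poorest at 2 members nearest St3gal1, a sialyltransferase gene, with 1.36 and 1.38. The spread exceeded 1 in 31 members and was under 0.2 in 130.

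Levels differed little with distance from genes. Members at 10 to 20 kb (424), 20 to 50 kb (564) and 50 to 100 kb (331) had medians of 47.3, 46.2 and 44.5 tags per kb. Next to the limits, Ier5 (10.014 kb from its member, 204 mean scaled tags) and Lyzl4 (79.8) lay just inside 10 kb, while Gcgr (116) and Idh2 (90.4) lay just outside. Cxadr (30.3) and Plxna1 (76.9) lay just inside 100 kb, and Slc44a1 (104) and Zfp536 (512) just outside. Called regions were thus present on both sides of each limit.

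The same distal positions were often called in some libraries and not in others. Of 6195 merged regions at this distance called in any library, 1893 were called in 1 library and 445 in 9, besides the 1319 in all 10. Of the 6195, 3 were called in 5 old and 0 young libraries, and 13 in 0 old and 5 young libraries. The same counts over all merged regions were not made, so nothing particular to distal regions is read from them.

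The strongest member by scaled tags lay 64.1 kb from Cr2, the gene of complement receptor 2 (chr1:195240978-195242504). It held 2363, 2295, 2361, 2043 and 1325 scaled tags in old libraries and 2306, 2162, 2545, 2434 and 2052 in young libraries. With 1736 tags per kb it was the densest member, and it also had the highest input of all members, 111 tags per kb against a median of 4.64. The part of the input in its level was not tested. The groups overlapped. The log2 difference, always given as old minus young with libraries centred, was 0.12 ± 0.13 here (SE; limma adjusted p = 0.665).

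Others of the 12 strongest members follow. The member 47.8 kb from Slc45a1, a sugar transporter gene, faced Errfi1, an inhibitor of the EGF receptor (chr4:150699945-150720354). It held 1398, 1563, 2136, 1505 and 1281 scaled tags in old and 1904, 2625, 2261, 2186 and 1780 in young libraries. Only old replicate 3 reached the young range, and the centred difference was −0.16 ± 0.12 on the log2 scale (limma adjusted p = 0.509). A member 60.0 kb from Ppara, the nuclear receptor that switches on fatty acid oxidation in fasting (chr15:85666629-85674901), held 1321, 1407, 1357, 1047 and 1027 in old and 1269, 1923, 1729, 1712 and 1318 in young libraries. Its log2 difference was −0.07 ± 0.10 (limma adjusted p = 0.771). A member between Wdr5 and Rxra, the common partner of many liver nuclear receptors (chr2:27586720-27603622), held 1100, 1180, 993, 878 and 963 in old and 1254, 1996, 1535, 1378 and 1197 in young libraries. All 5 old libraries lay below the young ones in scaled tags, while after centring the groups overlapped and the log2 difference was −0.21 ± 0.12 (limma adjusted p = 0.408).

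A pair of strong members stood in a gap bordered by Cebpb, a transcription factor of the acute phase and of gluconeogenesis. The gap between Cebpb and Ptpn1, a phosphatase acting on the insulin receptor, held 2 of the 12 strongest members, with log2 differences of 0.32 ± 0.11 nearer Cebpb (limma adjusted p = 0.154) and −0.30 ± 0.11 nearer Ptpn1 (limma adjusted p = 0.181). The second carried the Gm32845 window printed above. The member nearest Insig1, a sterol-regulated inhibitor of cholesterol synthesis (27.8 kb away, chr5:28030145-28043638) held 1122, 1012, 1175, 1013 and 874 in old and 1036, 1159, 966, 1606 and 1160 in young libraries, with a log2 difference of 0.12 ± 0.10 (limma adjusted p = 0.591). The remaining members of the 12 lay nearest Irf2bp2, Ak4, Gm52006 and Tomm20 and again nearest Slc45a1, with 1002 to 1477 mean scaled tags. Of the 12 strongest members 0 passed an adjusted p of 0.05 by limma (2 at an unadjusted p under 0.05), against 1.07% of all regions tested. By edgeR 0 passed (0.948% of all regions) and by DESeq2 1 (4.93% of all regions).

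The 1319 members lay in 849 gaps between protein-coding genes, of which 584 held 1 member and 22 held 5 or more. With a spacing under 50 kb, 672 members formed 247 runs and 647 stood alone. The longest runs had 9 members each. They lay between Tarbp1 and Tomm20 on chromosome 8 around Irf2bp2, a transcriptional corepressor gene (172.6 kb), between Katnal1 and Hmgb1 on chromosome 5 (79.4 kb), and from Gas8 to Rab4a on chromosome 8 around Rhou, a gene of an atypical small GTPase (137.0 kb). In the run around Irf2bp2 the members ranged from 45.2 to 1477 mean scaled tags, and 1 of the 9 centred log2 differences was positive. In the Katnal1 and Hmgb1 run 8 of 9 were positive, and in the Rhou run 7 of 9, all relative to the median region. The plot of the 3 runs shows the levels of neighbouring members in both ages. In the run around Irf2bp2, the member at chr8:126650220-126652493 held 35.9, 30.5, 28.9, 40.8 and 18.3 scaled tags in old and 100.8, 92.1, 46.3, 24.9 and 33.5 in young libraries, with overlap (−0.47 ± 0.40, limma adjusted p = 0.586). The member next to it at chr8:126654451-126669337 held 1087, 1298, 1532, 1262 and 975 in old and 2207, 2046, 1644, 1499 and 1215 in young libraries, also with overlap (−0.17 ± 0.16, limma adjusted p = 0.625).

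**Figure D1:**
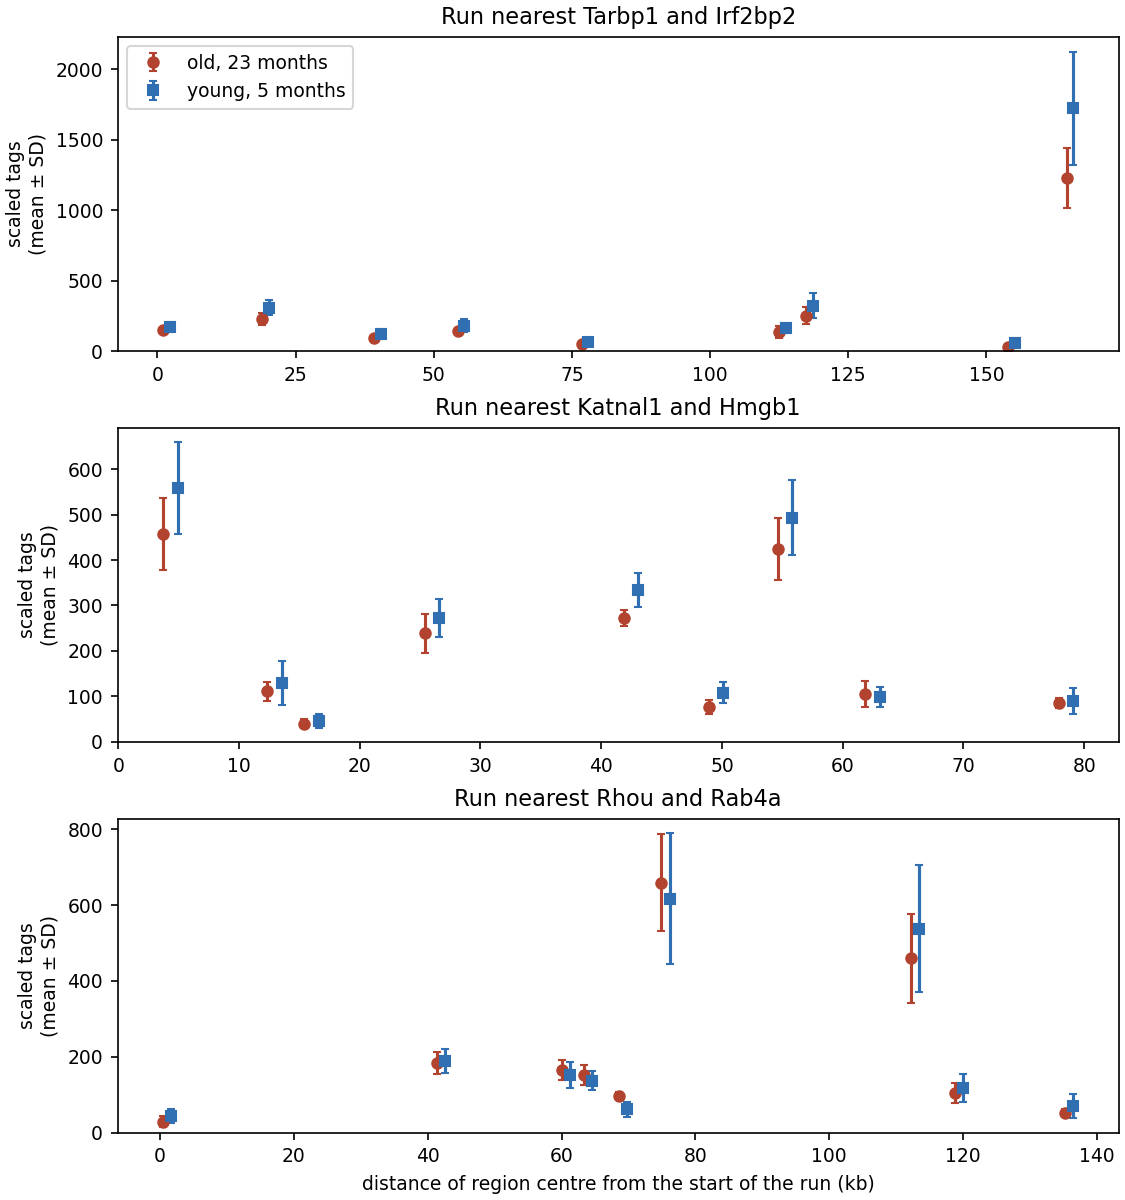
H3K27ac in the 3 longest runs of distal regions, as mean ± SD of scaled tags over 5 old (circles) and 5 young (squares) libraries, against the distance of each region's centre from the start of the run in kb. Points of the ages are shifted sideways to be seen apart. Each panel has 9 regions, and the highest of the top panel lies near the far end of the run.

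Differences between ages were also set side by side for neighbours. Over 425 pairs of neighbouring members under 50 kb apart, the log2 differences had a Pearson r of 0.47 and a Spearman coefficient of 0.42, and 67.1% of pairs shared a sign. Over 854 members with a gene-end region of the nearest gene called in all libraries, r was 0.31, the Spearman coefficient 0.27 and 49.4% shared a sign. These are descriptions over pairs from the same 10 libraries, and their difference was not tested.

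Members with a long noncoding start were stronger and longer in the median. The 200 members with a long noncoding start had a median of 180 scaled tags, 61.9 tags per kb and 4172 bp, against 92.5 scaled tags, 44.3 tags per kb and 3060 bp in the 1119 others. A longer region more readily holds a whole window, and summed tags grow with length. The part of length in these medians was not tested. A member of 942 mean scaled tags nearest Rab11fip4 (12.4 kb away, chr11:79710390-79726670) contained the hairpins of miR-193a and miR-365-2, and was chosen for its annotation after the values were seen. Their mature 3p sequences on the plus strand (RefSeq, GRCm38.p6; chr11:79712009-79712030 and chr11:79726467-79726488), with the seed at bases 2 to 8 in capitals, differ in the seed.
miR-193a-3p: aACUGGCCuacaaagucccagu
miR-365-3p: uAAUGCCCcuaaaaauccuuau

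This member held 854, 758, 837, 572 and 522 scaled tags in old and 836, 1539, 1138, 1361 and 1007 in young libraries. Young replicate 1 lay within the old range, and the log2 difference was −0.43 ± 0.11 (limma adjusted p = 0.0754). Hairpins also lay in the members nearest Sec14l1 (miR-6516) and Errfi1 (miR-12196), with log2 differences of −0.06 and −0.19. The 11 members over a tRNA gene had 56.2 to 526.1 mean scaled tags, a median log2 difference of −0.15 and 5 positive differences. Noncoding genes with strong members were Dleu2, nearest Kcnrg, with 814, 797, 791, 756 and 722 scaled tags in old and 941, 1071, 990, 1048 and 844 in young libraries (centred difference −0.03 ± 0.10), and Chaserr, an RNA gene that lies beside Chd2, with a mean of 867. At Dleu2 all old libraries lay below the young ones before centring and overlapped them after it. The member over Terc, the RNA template of telomerase, lay nearest BC107364 and held 136, 156, 167, 129 and 119 scaled tags in old and 147, 209, 163, 213 and 161 in young libraries, with overlapping groups.

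The comparison of ages asked whether acetylation of these regions differed in old hepatocytes. Of the 1319 members 18 passed the threshold (limma on log2 of scaled tags plus 1, each library centred on its median region, Benjamini-Hochberg adjusted p under 0.05 over all 12550 regions). They were 1.36% of the members, against 1.07% of all regions tested. Of the members, 13 were higher in old libraries (0.986%, against 0.534% of all regions) and 5 lower (0.379%, against 0.534%). Unadjusted p-values under 0.05 were found for 262 members (19.9%, against 17.2% of all regions). The share of called members is thus near that of the whole table. The calls depended on the libraries: without old replicates 1 to 5 in turn 7, 5, 9, 5 and 8 members passed, and without young replicates 1 to 5 in turn 50, 6, 8, 8 and 10. The share of all regions was 2.03% without young replicate 1 (members 3.79%) and 0.239 to 0.478% without any other single library (members 0.379 to 0.758%). With IP efficiency in the model 0 members and 0 of all regions passed by limma (155 members at an unadjusted p under 0.05). The share of all regions at that unadjusted cut is not given here for this fit, so nothing is read from the 155. Efficiency was lower in old libraries, and its part cannot be told apart from that of age by these fits.

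On balance the members lay higher in old libraries relative to the median region. Their median log2 difference was 0.14, with 864 positive and 455 negative, against a median of −0.01 over all regions, −0.05 at gene ends, 0.02 in gene bodies, 0.13 at 1 to 10 kb from genes and 0.23 beyond 100 kb. Without centring every median moved down with the median of all regions, which was then −0.31, and the members stood at −0.15 and gene ends at −0.35. The median of the members is therefore positive or negative by the choice of scaling, and it lay above that of gene ends under both. Without centring 26 members passed (1.97%), against 5.78% of all regions. Of these, 6 were higher in old libraries, against 0.223% of all regions, and 20 lower, against 5.55%. Centred values of the ages did not overlap in 73 members (5.53%, against 5.28% of all regions). These were 60 members higher in old libraries (4.55%, against 2.33% of all regions) and 13 lower (0.986%, against 2.96%). In scaled tags as deposited, old libraries lay wholly above young ones in 6 members (0.455%, against 0.271%) and wholly below in 40 (3.03%, against 8.3%). Since bulk chromatin was measured, fewer cells with an acetylated region and less acetylation per cell cannot be told apart.

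**Figure D2:**
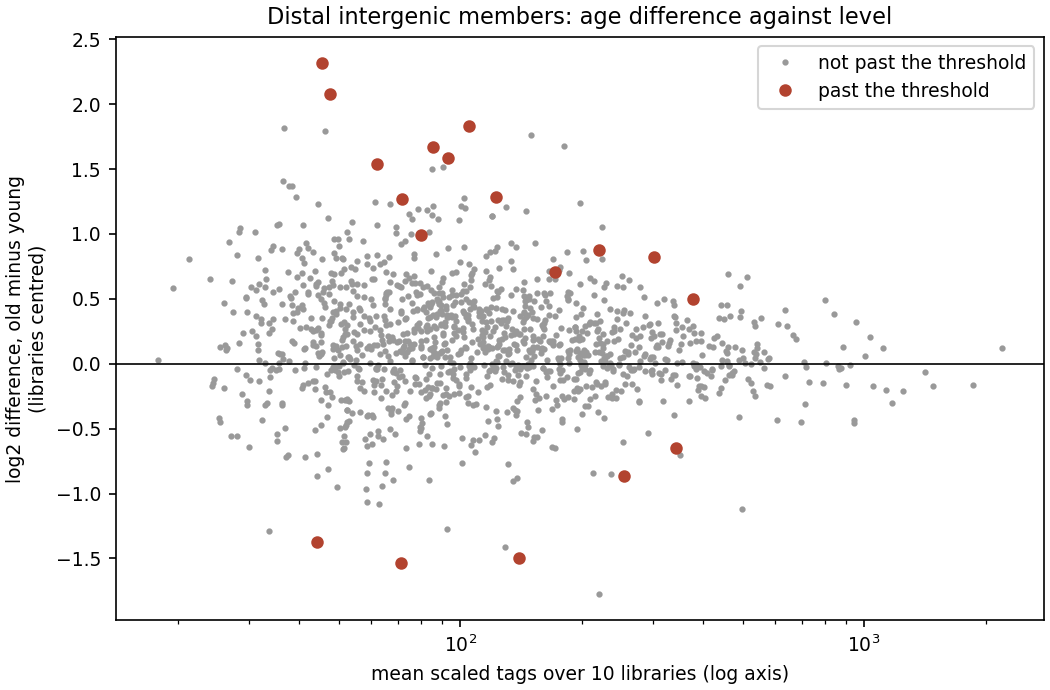
Log2 difference of old minus young after centring of libraries against mean scaled tags over 10 libraries (log axis), for the 1319 distal members. The 18 members past the threshold are drawn as large points, and 864 points lie above 0. Without centring the median turns negative (−0.15).

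The classes were also compared within ranges of signal. Shared autosomal regions were divided into 5 groups of equal size by mean scaled tags. From the weakest to the strongest group, the median centred log2 difference of the members was 0.18, 0.21, 0.13, 0.07 and 0.01. At gene ends it was 0.03, −0.00096, −0.03, −0.06 and −0.09. The members lay above gene ends in each group, and in both classes the median was lower in the strongest group than in the weakest.

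**Figure D3:**
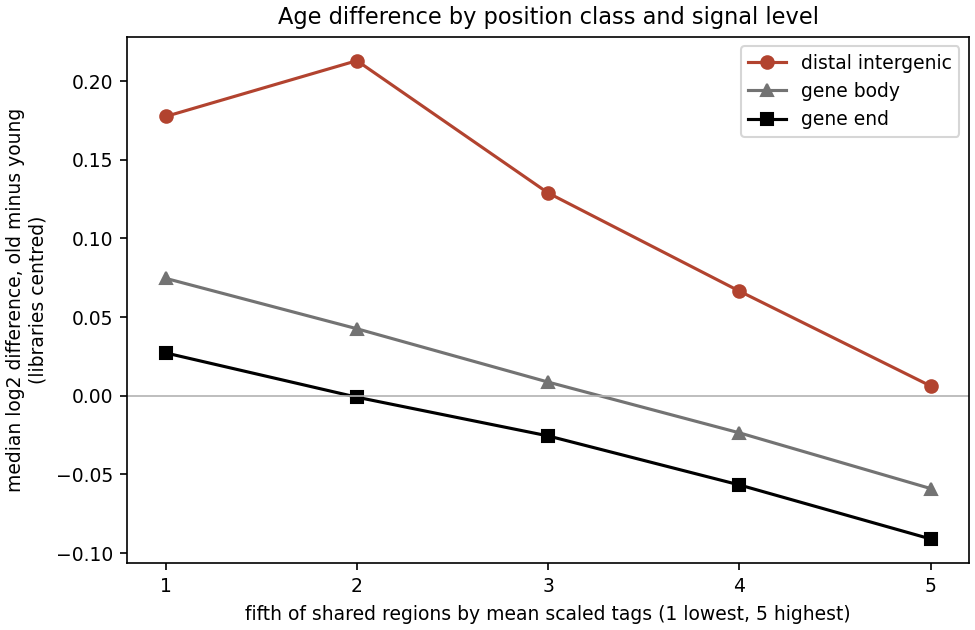
Median log2 difference of old minus young in 5 equal groups of shared autosomal regions, from weakest to strongest signal, for distal intergenic, gene-body and gene-end regions, libraries centred. The distal line lies above the gene-end line in each group. Without centring all medians are lower, as the median of all regions falls to −0.31.

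As a share of all scaled tags in shared regions, the members held 7.28, 6.72, 7.51, 7.60 and 7.26% in old libraries and 7.47, 6.45, 6.62, 6.34 and 6.19% in young libraries. The means were 7.28 ± 0.342% in old and 6.61 ± 0.502% in young libraries (SD, n = 5 each). Young replicate 1 lay within the old range, and the other 4 young libraries lay below all old ones. The members also took a larger share of the called length, 9.58 ± 0.123% in old and 9.24 ± 0.295% in young libraries. IP efficiency tended the other way, with overlap, and its part in the share was not tested.

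**Figure D4:**
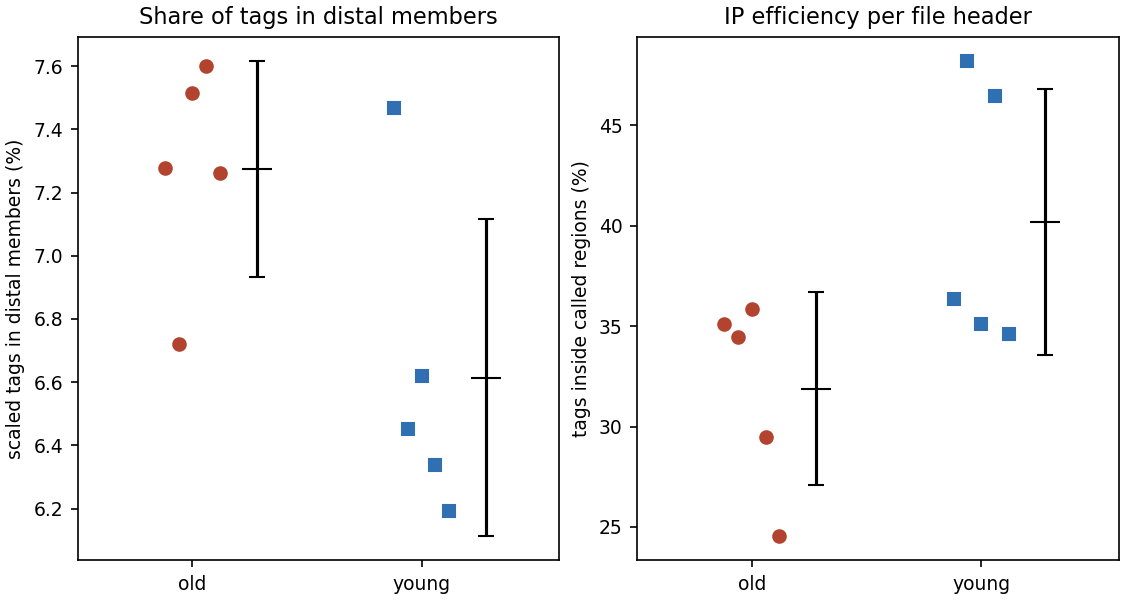
Left, share of scaled tags of shared regions that fell in distal members; right, IP efficiency; 1 point per library, old left of young in each panel, with mean ± SD (n = 5 each) beside the points. The axes do not start at 0. Old libraries lie at 6.72 to 7.60% and young ones at 6.19 to 7.47% on the left, while on the right old libraries lie at 24.5 to 35.8% and young ones at 34.6 to 48.2%.

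The largest increase was found in a gap with a second called member. Between Asb4, a gene of a ubiquitin ligase adaptor, and Pdk4, whose kinase inhibits pyruvate dehydrogenase and so spares glucose in fasting, lay 2 members, and both passed. The member 14.4 kb from Asb4 (chr6:5447377-5450785) held 71.8, 73.1, 95.6, 78.5 and 48.4 scaled tags in old libraries and 24.9, 14.4, 14.3, 18.4 and 14.8 in young libraries. Every old library exceeded every young one, by a log2 difference of 2.32 ± 0.27 (limma adjusted p = 0.00293). The member 11.2 kb from Pdk4 (chr6:5469673-5472135) held 120, 83.8, 120, 79.0 and 76.2 in old and 41.3, 54.1, 53.1, 50.5 and 39.9 in young libraries. Again the groups did not overlap, and the difference was 1.27 ± 0.20 (limma adjusted p = 0.014). The strongest Pdk4 gene-end region held 213, 266, 212, 141 and 159 scaled tags in old and 94.5, 139, 57.2, 194 and 124 in young libraries, with overlap, a difference of 1.07 ± 0.24 and limma adjusted p = 0.0542. On tags per kb the differences were 0.50 at the Asb4 and 0.43 at the Pdk4 member. The called length of the Asb4 member averaged 2390 bp in old and 730 bp in young libraries and that of the Pdk4 member 1909 bp in old and 1163 bp in young libraries, so called width differed along with the sums.

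A further 3 increases showed no overlap of scaled tags between ages. The member 12.2 kb from Gpr12, a receptor gene expressed mainly in brain, held 61.8, 75.1, 42.8, 105 and 84.2 in old and 10.2, 19.6, 21.8, 38.7 and 18 in young libraries (chr5:146598626-146601675; 2.08 ± 0.37, limma adjusted p = 0.0269). It carries the start of Gm34333 printed above. The member 85.3 kb from Banf2, nearer to it than to the sorting nexin gene Snx5, held 118, 107, 153, 134 and 96.9 in old and 30.0, 64.5, 34.1, 82.7 and 36.7 in young libraries (chr2:144159303-144162897; 1.67 ± 0.24, limma adjusted p = 0.012). That gap held 6 members, all with positive centred differences between 0.20 and 1.67, of which this member alone passed. The member 19.2 kb from Septin7, a cytoskeletal GTPase gene, held 174, 119, 97.5, 168 and 104 in old and 54.9, 62.8, 33.4, 74.2 and 45 in young libraries (chr9:25327786-25331144; 1.58 ± 0.24, limma adjusted p = 0.014). The Banf2, Septin7 and Pdk4 members each kept their call under 18 of 20 alternatives, the Asb4 member under 17 of 19 and the Gpr12 member under 14 of 19.

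In the other 8 members higher in old libraries, scaled tags overlapped between ages and centred values did not. At Gm40847, a predicted gene, old libraries held 143, 130, 233, 206 and 67.5 and young libraries 58.3, 70.8, 62.0, 63.7 and 16.7 (1.83 ± 0.36, limma adjusted p = 0.0424). Old replicate 5 fell within the young range there. At Fgr, a kinase gene of the Src family known from myeloid cells, old libraries held 320, 229, 269, 269 and 227 and young libraries 174, 239, 174, 171 and 129 (chr4:132957891-132961886; 0.88 ± 0.14, limma adjusted p = 0.0189). The call was kept under 16 of 21 alternatives at Fgr and 11 of 20 at Gm40847. The strongest Fgr gene end held 321, 291, 304, 478 and 325 in old and 223, 344, 208, 331 and 153 in young libraries (0.78 ± 0.20, limma adjusted p = 0.0779). The macrophage markers summed to 228 to 369 scaled tags in old and 302 to 572 in young libraries, uncentred, with 12 of 14 at 0. Their part in the Fgr difference was not tested.

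The Rhou member (45.4 kb away, chr8:123709293-123712411) held 95, 98.0, 113, 89.1 and 95.3 in old and 58.3, 92.7, 40.9, 64.3 and 54.4 in young libraries (0.99 ± 0.20, limma adjusted p = 0.0438). It contains the start of Gm39277 and belongs to the Rhou run. The Abhd17c member, at an enzyme gene that removes palmitate from proteins, held 372, 318, 404, 392 and 281 in old and 320, 294, 211, 268 and 157 in young libraries (0.82 ± 0.16, limma adjusted p = 0.0388). It contains the start of Gm39044. The remaining 4 lay nearest Pgrmc2 (1.54 ± 0.32), a heme-binding membrane protein gene, Optc (1.28 ± 0.28), an eye matrix protein gene, Cd9 (0.71 ± 0.15), a tetraspanin gene, and Sftpb (0.50 ± 0.10), of lung surfactant, with limma adjusted p from 0.0389 to 0.0486. In Sftpb the values were close, at 475, 402, 453, 347 and 340 in old and 271, 399, 334, 423 and 331 in young libraries. These calls were less stable. They were kept under 8 of 21 alternatives at Sftpb, 7 of 20 at Abhd17c and at Cd9, 6 of 20 at Rhou, and 5 of 20 at Pgrmc2 and at Optc.

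**Figure D5:**
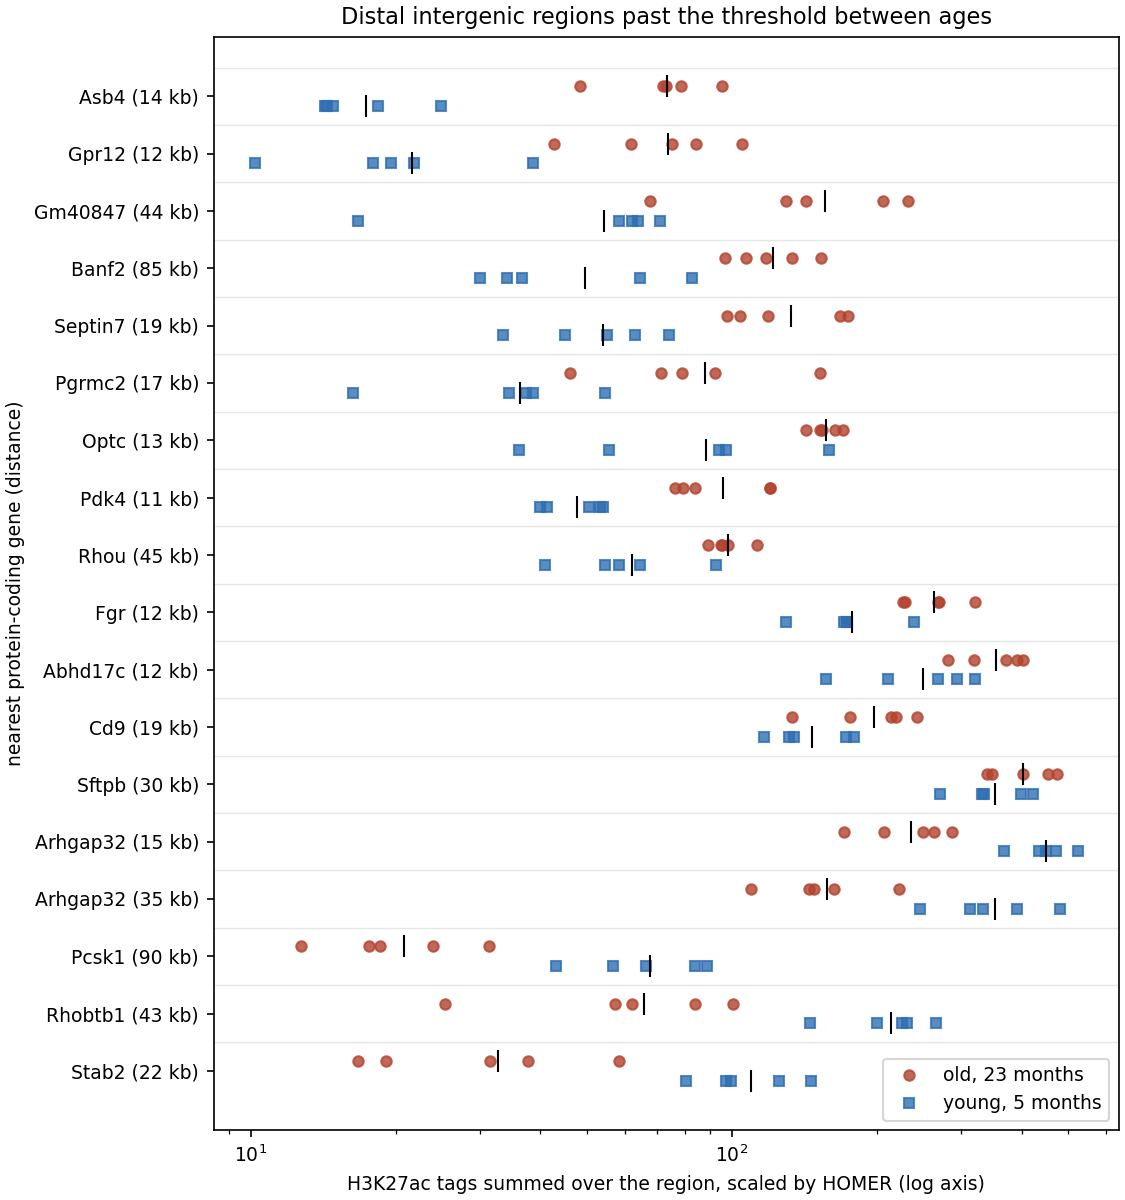
Scaled tags of the 18 distal regions past the threshold, 1 point per library on a log axis, with old libraries (circles) above young libraries (squares) in each row and a tick at each mean. Rows are named by nearest gene and distance and run from the largest positive to the largest negative log2 difference. In the Asb4 row the old libraries lie at 48.4 to 95.6 and the young ones at 14.3 to 24.9.

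The 5 decreases showed no overlap of scaled tags. The member 21.9 kb from Stab2, a scavenger receptor gene of liver sinusoidal endothelium (chr10:87029908-87033925), held 58.4, 31.5, 37.7, 19.1 and 16.7 in old and 80.4, 146, 97.4, 125 and 99.7 in young libraries. Old minus young came to −1.53 ± 0.27 in log2 units (limma adjusted p = 0.0269), with a difference of −0.09 on tags per kb, and called length averaged 1182 bp in old and 3265 bp in young libraries. Gene ends of the 12 endothelial markers summed to 55.1 to 193 scaled tags in old and 28.9 to 165 in young libraries. Of these markers Kdr, Pecam1, Cdh5, Tek and Erg were called in no library. The others, Stab2 among them, were called in some libraries, and 0 of the 12 in all. Each old library called 2 to 5 of the 12 and each young library 1 to 4. The part of these markers in this decrease was not tested. The member 43.1 kb from Rhobtb1, a gene of the BTB domain family (chr10:69103269-69108008), held 57.2, 61.9, 101, 83.8 and 25.4 in old and 226, 266, 232, 201 and 145 in young libraries (−1.50 ± 0.27, limma adjusted p = 0.0278). The member 90.4 kb from Pcsk1, a prohormone convertase gene, held 18.6, 23.9, 17.6, 31.3 and 12.7 in old and 88.9, 66.3, 56.5, 84.0 and 43.1 in young libraries (−1.37 ± 0.30, limma adjusted p = 0.048). In both, every old library lay below every young one.

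The remaining decreases again came as a pair in 1 gap. Between Barx2, a homeobox gene, and Arhgap32, a GTPase-activating protein gene, lay 3 members with log2 differences from −0.94 to −0.65, of which 2 passed. The member 34.9 kb from Arhgap32 (chr9:31975705-31981764) held 163, 148, 223, 145 and 110 in old and 481, 391, 313, 332 and 246 in young libraries (−0.86 ± 0.18, limma adjusted p = 0.0438). The member 14.9 kb from Arhgap32 (chr9:31993317-32001775) held 287, 207, 263, 249 and 171 in old and 523, 471, 436, 450 and 367 in young libraries (−0.65 ± 0.13, limma adjusted p = 0.0438). In both members every old library lay below every young one. Among the decreases the call was kept under 13 of 20 alternatives at Rhobtb1, 10 of 20 at Stab2, 7 and 5 of 20 at the Arhgap32 members in the order given, and 4 of 19 at Pcsk1.

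All 18 called members had the sign of their difference on tags per kb as well, but most differences were much smaller there. The increases ranged from 0.15 (Cd9) to 0.84 (Gpr12) on tags per kb, with 0.28 at Banf2 and 0.50 at Septin7, and the decreases from −0.64 (the Arhgap32 member 34.9 kb away) to −0.09 (Stab2), with −0.26 at Rhobtb1 and −0.25 at Pcsk1. The Gpr12 member and that Arhgap32 member, 2 of the 18, also passed there, where 0.319% of all regions passed. In all 18 the called length was longer in the age with more tags. Of the 7 whose nearest gene had a gene-end region in all libraries, 4 shared its sign.

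Beyond the threshold, some members showed wide differences without passing. The Hsd17b6 member, at a gene of steroid and retinoid metabolism, held 57.8, 61.4, 74.8, 62.0 and 69.9 in old and 9.63, 23.6, 10.9, 53.2 and 39.6 in young libraries (1.80 ± 0.41, limma adjusted p = 0.0591). The Ppp1r3b member, at the gene of a glycogen-targeting phosphatase subunit, held 318, 335, 507, 180 and 112 in old and 505, 884, 602, 976 and 573 in young libraries (−1.12 ± 0.25, limma adjusted p = 0.0564). The Amn1 member held 110, 67.0, 69.8, 83.8 and 11.9 in old and 226, 196, 210, 197 and 116 in young libraries (−1.41 ± 0.42, limma adjusted p = 0.123). In the Hsd17b6 and Amn1 members the ages did not overlap in scaled tags, and in the Ppp1r3b member they overlapped by old replicate 3 alone.

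Gene groups were read by nearest gene. Beside every count below, the share over all regions is 1.07% past the threshold by limma (0.534% higher and 0.534% lower), 0.948% by edgeR and 4.93% by DESeq2, and 17.2% had an unadjusted p under 0.05 by limma. The lists are small, and nothing particular to a list is read from its count. Among members nearest genes of fatty acid oxidation and ketone bodies, 1 of 9 rose (Pdk4) and 0 fell by limma, with 4 at an unadjusted p under 0.05. In that list 7 of 9 centred differences were positive with a median of 0.38 (0.09 without centring). The value was 0.47 ± 0.11 at a member 20.6 kb from Acsl1, which activates long-chain fatty acids (limma adjusted p = 0.0688). Of 14 members nearest genes of lipid synthesis, storage and cholesterol 0 passed by limma, edgeR or DESeq2 (5 at an unadjusted p under 0.05 by limma). There 13 were positive, and the median was 0.40 (0.10 without centring, with 10 positive). Values there were 0.80 ± 0.26 at Gpam, which starts glycerolipid synthesis, 0.36 ± 0.16 at Plin2, a lipid droplet coat gene, and 0.12 ± 0.10 and −0.08 ± 0.13 at Insig1. Over all members 65.5% were positive, and over all regions 48.3%.

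Of 6 members nearest interferon-stimulated and interferon receptor genes 0 passed by limma, edgeR or DESeq2, and 0 had an unadjusted p under 0.05 by limma. All 6 were positive after centring with a median of 0.10, but 1 of 6 was positive without centring, with a median of −0.19. Irf1, an interferon-induced transcription factor gene, had a member of 354, 373, 402, 333 and 224 scaled tags in old and 296, 410, 384, 382 and 367 in young libraries (0.15 ± 0.12, limma adjusted p = 0.539). Members nearest Irf2 stood at 0.05 ± 0.16 and 0.02 ± 0.22, and a member nearest Ifnar1, a subunit of the type I interferon receptor, at 0.03 ± 0.13. With the Irf1 member, these were the strongest of the list by mean scaled tags. Over all 6 members the centred differences ran from 0.02 to 0.59. Of 3 members nearest NF-kB and inflammation genes 0 passed by limma (2 at an unadjusted p under 0.05), 1 by edgeR and 1 by DESeq2, with 1.15 ± 0.26 at the chemokine gene Ccl2 (limma adjusted p = 0.0596), 0.17 ± 0.14 at Nfkbia and −0.70 ± 0.28 at Il1r1. Of 20 members nearest stress, senescence and p53 genes 0 passed by limma or edgeR (7 at an unadjusted p under 0.05 by limma, against 17.2% of all regions) and 2 by DESeq2 (against 4.93%). Of these 14 were positive with a median of 0.20 (−0.09 without centring), among them 0.60 ± 0.15 at Gclc, of glutathione synthesis, and 0.32 ± 0.09 at Atf3.

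Hepatocyte transcription factor genes were nearest to 32 members, the most of any list. Of them 0 passed by limma (4 at an unadjusted p under 0.05, against 17.2% of all regions), 0 by edgeR and 2 by DESeq2 (against 4.93%). In that list 15 were positive and 17 negative, and the median was −0.08, turning to 0.06 on tags per kb. A member 18.045 kb from Cebpa held 599, 602, 633, 378 and 465 scaled tags in old and 98.5, 648, 422, 675 and 607 in young libraries (0.67 ± 0.40, limma adjusted p = 0.419), where young replicate 1 was far below the others. Secreted proteins of hepatocytes had 15 members (6 positive, median −0.08), with −0.29 ± 0.19 at Alb, −0.51 ± 0.19 at Serpina1a and 0.09 ± 0.24 at Apob. Glucose and insulin genes had 18 (9 positive, median −0.02), with −0.53 ± 0.20 at G6pc. Drug-metabolising enzymes had 12 (5 positive, median −0.23), with −0.85 ± 0.23 at Ugt2b38 (limma adjusted p = 0.0917) and 1.67 ± 0.43 at Aldh8a1 (limma adjusted p = 0.0798). The growth hormone and sex-biased list had 15 (8 positive, median 0.03), bile acid genes 7 (4 positive, median 0.02), amino acid and urea cycle genes 7 (2 positive, median −0.05) and clock genes 3 (1 positive, median −0.13). In these 7 lists 0 members passed by limma, where unadjusted p-values under 0.05 were found for 4 members nearest secreted protein genes, 6 nearest glucose, 2 nearest drug-metabolising, 2 nearest growth hormone and 0 nearest bile acid, amino acid and clock genes. By edgeR 0 passed, and by DESeq2 1 secreted, 1 glucose, 2 drug-metabolising and 1 growth hormone member did. Without centring all 7 medians were negative. On tags per kb those of secreted protein, glucose, amino acid and drug-metabolising genes turned positive (0.04, 0.21, 0.08 and 0.08).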

How the data were processed

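H3K27ac ChIP-seq region lists of 5 old and 5 young hepatocyte libraries were used. The 10 input samples have no list of their own here. HOMER's histone mode had been run by the authors on each library against its own input, as the file headers record, at 4-fold enrichment and a Poisson p of 1.00e-04, stitching 500-bp peaks with a minimum distance of 1000 bp and a local window of 10000 bp. The submitters' processing notes name mm10 as the build. For the aligner and the HOMER version, the entry is: not given in the sources used here. Per the file headers, the signal column is a normalized tag count, scaled to 10000000 tags per library. The deposited total tags per region come in steps of 0.5 and were handled like expected counts, rounded to whole numbers for edgeR and DESeq2. The deposited score, fold ratio over input and p-values of each region are the authors' own, and the fold ratio served only for a stricter filter.

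Regions were merged by 1 bp of overlap, and the scaled tags of a library's calls were summed in each. Gene spans came from a RefSeq table of 21900 protein-coding genes (49997 of all biotypes). Differences were fitted with limma 3.58.1 (R 4.3.3) on log2(scaled tags + 1) over all regions called in all libraries, each library centred on its median region. The added 1 lowers the fold changes of weak regions. Only a library's own calls are summed, so called length also enters each difference. In all 18 called members it was longer in the age with more tags. edgeR 4.0.16, DESeq2 1.42.0 and other settings were alternatives. The scripts were tested on simulated data. Levels, shares and figures were computed with Python 3.11.15, pandas 2.3.3, numpy 2.4.6, scipy 1.17.1 and matplotlib 3.10.9. Depth is given in total tags per library, and a tag number covers counting error only.

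The members and gene lists were chosen with earlier results of these data known. Members were named when they passed the threshold, were among the 12 strongest, had the largest differences without overlap of centred values, were the strongest nearest a listed gene, lay next to the distance limits, belonged to the 3 longest runs, or were the longest. Members over a noncoding RNA gene or with a motif were chosen after their values were seen. A planned motif search at region centres was not made because no genome sequence was used here, and start windows took its place. Some results are not reported here. Same-numbered libraries were not taken as pairs.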

Additional observations from a re-analysis of the deposited data

Results flagged for a closer look

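Within an age, 1 library stood apart from the other 4 in 12 of the 224 sets of 5 values examined (5.36%), where chance gives about 1 in 20. Of the 12, 9 were low and 3 high. Young replicate 5 accounted for 5 and old replicate 5 for 4. The scaled tags examined were not centred. In log2 scaled tags the median region stood at 6.97 in old replicate 5, against 7.20 to 7.48 in the other old libraries. It stood at 7.40 in young replicate 5, against 7.45 to 7.85 in the other young libraries. The part of these library levels in the flags was not tested.

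The median called length of the distal members was 1711 bp in old replicate 5, against 2105 to 2243 bp in the other old libraries. That library was also low at the member nearest Ptpn1 (591.7 scaled tags, others 980.9 to 1110), at a member nearest Arg1 (17.5, others 76.2 to 97) and at a member nearest Tarbp1 (147.7, others 240.7 to 253.9). Young replicate 5 was low at the member nearest Gm40847 (16.7, others 58.3 to 70.8), the member nearest Amn1 (116.4, others 196.4 to 225.9), the member nearest Ttr (299.5, others 367.5 to 380) and 2 members nearest Rhou (93.3, others 159.5 to 181.2, and 95.5, others 141.1 to 159.1).

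The high values were 496.5 scaled tags in young replicate 2 at the member nearest Alb (others 269.6 to 306.3), and, in old replicate 3, 386.1 at the member nearest Ppp1r3c (others 274 to 299.1) and 340.2 at the member nearest Gpt2 (others 187.4 to 229.5). Gm40847 alone among these members passed the threshold between ages, and without young replicate 5 its old libraries still exceeded the other young ones except for old replicate 5.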

How the results depend on the processing

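The share of tags in members was higher in old libraries by 0.662 points, and by 0.326 to 0.948 points under the alternatives that changed it. The median difference (0.14) ranged from 0.09 to 0.22, except without centring (−0.15, where the median of all regions was −0.31). The number past the threshold (18, 1.36% of members and 1.07% of all regions) is followed by the share of all regions called. It was 10 on tags per kb (0.319%), 10 of 1105 among regions of at least 50 scaled tags (0.683%), 87 by DESeq2 (4.93%), 0 with IP efficiency as covariate (0%), 8 of 219 with a fold over input of at least 8 (1.95%), and 8 of 895 at 20 to 100 kb (1.07%). It was 27 with a pseudocount of 10 (1.38%), 26 without centring (5.78%), 15 with cyclic loess (0.829%), 19 by edgeR (0.948%), 17 of the 510 members of which each library covered at least 0.5 (1.70%), and 13 of 647 with all genes as spans (1.07%). In that order, 18, 11, 14, 16, 2 and 9 of these were among the 18 main calls. The coverage filter retained only 2 of the 18, and all 17 calls under it were higher in old libraries. Leaving out 1 library gave 5 to 50 (0.239 to 2.03%), and leaving out young replicates 1 and 3 together, chosen after seeing the data, 55 (2.06%). Pairing by replicate number was not supported, with correlations from −0.0521 to 0.185. A replicate block gave 8 calls (7 higher, 1 lower; 0.59%), and replicates 3 and 5 alone correlated best with their own number. None of the 18 called members changed sign under any alternative in which it was fitted. The cause of these shifts was not tested, apart from the fewer members tested where a filter removed some.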
